A study of Mus musculus with 11 samples.

Results

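Interferon-stimulated genes, the genes that cells switch on when interferons reach them, were examined here as a set of 42 members named by symbol: type I and type II interferon signalling factors and induced genes, without the *Ifi27* family. The rule for members is a list of names, chosen with earlier results of these data known. Of the 42, 40 had a row in the gene table, which held 13669 genes, and all 40 were among the 13334 genes that passed the filter on low counts. *Ddx58* was listed under its newer symbol *Rigi* and was matched by its gene identifier, the other 39 by symbol, and *Mx1* and *Oas2* were not analysed here.

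The livers came from wild-type male C57BL/6J mice, fed chow and injected with a serotype 8 adeno-associated virus vector (rAAV8). In 6 mice the vector expressed a tough decoy (TuD), a hairpin RNA with a binding site for *miR-379* and another for *miR-541* (AAV-TuD, replicates 3, 4, 5, 9, 10 and 11). In 5 mice it expressed a negative control sequence (AAV-NC, replicates 1, 2, 6, 7 and 8). Both groups therefore carried the vector, and both expressed their insert from LP1, a promoter active in hepatocytes. The paper lists the AAV-NC insert apart from its control tough decoy, with another sequence, so the inserts differed in more than their miRNA binding sites. The RNA was taken from whole liver with its Kupffer, endothelial and stellate cells. Mice arrived at 6 weeks of age, received 5e11 genome copies by tail vein, and were killed after a fast of 5 to 6 h between 4 weeks and 3 months later. The time for each animal is not given in the sources used here.

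Interferons are secreted proteins that bind receptors on the cell surface, and Janus kinases on those receptors then phosphorylate STAT proteins. Type I interferon (alpha and beta) acts mainly through a complex that holds STAT2 and IRF9 and binds the interferon-stimulated response element (ISRE), and type II interferon (gamma) acts mainly through the gamma-activated site (GAS). The induced proteins detect viral RNA, degrade or sequester it, mark proteins with ISG15 or attack the vacuoles of parasites, and in liver they are made by hepatocytes as well as by macrophages and endothelial cells.

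Each liver gave 8148531 to 12043959 reads assigned to genes, and values are given as CPM, counts per 1000000 reads after scaling library sizes by the trimmed mean of M-values (TMM). 3 livers stood apart by the share of their reads on major urinary protein (*Mup*) genes, with 38.6% in AAV-NC 7, 30.9% in AAV-TuD 3 and 28.4% in AAV-TuD 5, against 8.09% to 18.7% in the other 8. The mature miRNAs that the TuD binds were not measured in these libraries, so their repression was not assessed here. The paper describes their cluster as regulated independently of *Meg3*, so the values of *Meg3* do not report on it. *Meg3*, a long non-coding RNA of the same locus, averaged 16.1 CPM in the controls and 8.63 CPM in AAV-TuD (log2 fold change −0.89 ± 0.35 SE, adjusted p = 0.108).

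Of the 40 members tested, 12 were higher with AAV-TuD and 0 were lower at an adjusted p under 0.05 (edgeR's quasi-likelihood test, Benjamini-Hochberg adjustment over all genes tested). That is 30% of the members, while 7.24% of all genes tested were higher and 4.33% were lower. Because the members were chosen with earlier results of these data known, their share is not independent of these data. 0 members were lower also at an unadjusted p under 0.05, with DESeq2 and with limma-voom, whereas 20 were higher at an unadjusted p under 0.05. The log2 fold change was above 0 for 36 members and below 0 for 4, with a median of 0.36 over the members and −0.0024 over all genes tested. The values ran from −0.33 for *Irgm2* to 1.42 for *Oas1a*. Of the 4 below 0, *Stat2*, *Eif2ak2* and *Mx2* turned above 0 when library size alone was used for scaling, which moved the median of all genes to 0.23. For 4 members (*Ly6e*, *Oas1a*, *Ifih1* and *Oasl2*) the lowest AAV-TuD value exceeded the highest AAV-NC value, as it did for 4.11% of all genes tested.

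**Figure D1:**
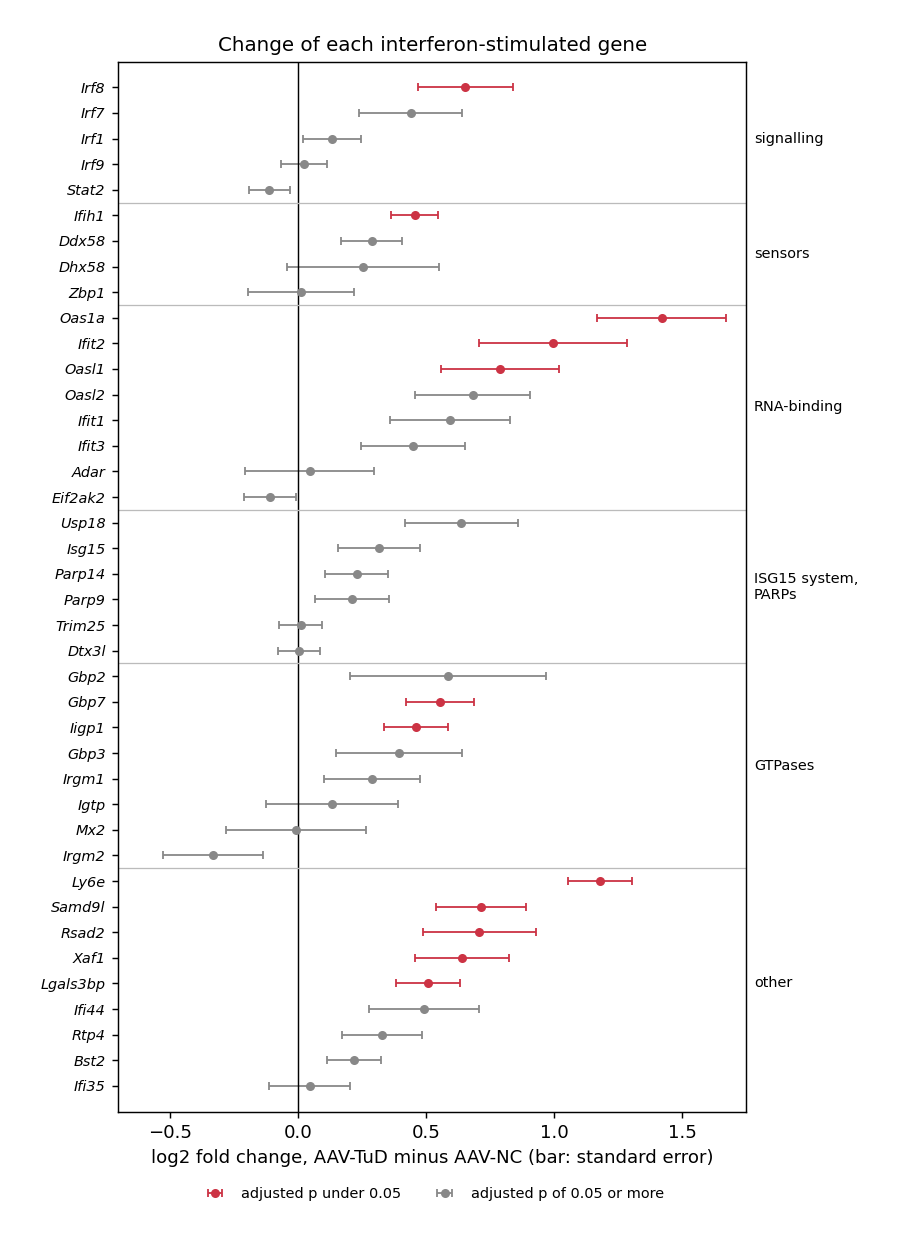
Log2 fold change (AAV-TuD minus AAV-NC, x axis) of the 40 members tested, grouped by role on the y axis; points are edgeR estimates, bars are standard errors, and red marks an adjusted p under 0.05. The 12 red points lie between 0.46 and 1.42, and the 4 members with an estimate below 0 lie between −0.33 and −0.01.

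Markers of some non-parenchymal cells differed between the same groups. Over all genes tested 7.24% were higher and 4.33% were lower. Of 10 Kupffer cell (liver macrophage) markers, 7 were higher with AAV-TuD and 0 lower, the median log2 fold change was 0.87, and the 10 summed to 125.8 to 186.0 CPM in AAV-NC and 140.5 to 398.8 CPM in AAV-TuD. Of 10 monocyte and neutrophil markers, 5 had a row and 3 of these (*Ccr2*, *Lyz2* and *Cybb*) were higher. *Fcgr1* and *S100a9*, a neutrophil marker, did not pass the threshold (adjusted p = 0.0608 and 0.684). The sum was 26.0 to 41.4 CPM against 42.9 to 106.5 CPM, most of it from *Lyz2* and *Cybb* (means 37.4 and 27.2 CPM in AAV-TuD). Of 8 stellate cell markers, 5 were higher, and the sum was 227.6 to 303.4 CPM against 361.0 to 471.3 CPM. Of 8 sinusoidal endothelial markers, 0 were higher or lower at the adjusted threshold, at an unadjusted p under 0.05, with DESeq2 or with limma-voom, and their median log2 fold change was −0.03. Of 8 plasmacytoid dendritic cell markers only *Ccr9*, *Dntt* and *Tcf4* had a row, and of 11 T and NK cell markers only *Ccl5*. 2 of 8 dendritic cell and 2 of 7 B cell markers had one, and 0 markers of these 4 lists passed the threshold in either direction with edgeR, DESeq2 or limma-voom (1 of them, of the dendritic cell list, had an unadjusted p under 0.05). Hepatocyte markers defined the tissue at a summed 38380 to 44700 CPM in AAV-NC and 46050 to 52240 CPM in AAV-TuD, with *Apob* and *Hnf4a* lower among 9 tested. Without *Alb*, which encodes albumin, the sum was 19443 to 23288 CPM in AAV-NC and 17925 to 21257 CPM in AAV-TuD. *Alb* itself averaged 21090 and 28030 CPM with no overlap, and passed the threshold with DESeq2 and limma-voom but not with edgeR (log2 fold change 0.41 ± 0.15, adjusted p = 0.0805). More cells of a type and more RNA per cell cannot be told apart in whole liver, and the part of these cell types in the members' values was not tested.

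Sequences upstream of the members were taken from RefSeq (mouse build GRCm38.p6) as windows of 250 bases before to 50 bases after an annotated start, and 31 of the 42 members had at least 1 window. Both strands were searched for GAAA followed after any 2 bases by a further GAAA, the core of an ISRE, and for TTCNNNGAA, the core of a GAS. An ISRE core was present for 16 of the 31 members (51.6%), against 3.99% of the 27025 mouse genes with a window. A GAS core was present for 11 of the 31 (35.5%), against 9.55% of all genes. Among the 10 members that were higher and had a window, 4 held an ISRE core and 4 a GAS core, while among the 21 that did not pass the threshold 12 held an ISRE core and 7 a GAS core. The match is one of letters alone and does not show binding.

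The windows of the 4 higher members with the smallest p that held either core show where those cores lie, and are followed by *Isg15*, added after the values were seen as the member with most ISRE cores that did not pass the threshold. Capitals mark ISRE and GAS cores, on either strand, and overlapping cores run together.

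Oas1a: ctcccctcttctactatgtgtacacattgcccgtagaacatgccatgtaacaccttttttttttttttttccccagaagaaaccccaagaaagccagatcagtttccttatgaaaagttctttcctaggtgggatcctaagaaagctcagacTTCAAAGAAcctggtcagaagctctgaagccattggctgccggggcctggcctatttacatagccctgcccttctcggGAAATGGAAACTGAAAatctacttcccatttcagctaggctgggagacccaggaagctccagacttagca
Ifih1: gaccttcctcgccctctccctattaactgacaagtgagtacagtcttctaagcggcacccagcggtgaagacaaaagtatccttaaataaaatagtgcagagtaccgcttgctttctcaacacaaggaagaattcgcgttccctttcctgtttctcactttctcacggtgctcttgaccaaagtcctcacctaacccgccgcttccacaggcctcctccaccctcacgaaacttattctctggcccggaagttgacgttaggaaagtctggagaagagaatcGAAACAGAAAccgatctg
Gbp7: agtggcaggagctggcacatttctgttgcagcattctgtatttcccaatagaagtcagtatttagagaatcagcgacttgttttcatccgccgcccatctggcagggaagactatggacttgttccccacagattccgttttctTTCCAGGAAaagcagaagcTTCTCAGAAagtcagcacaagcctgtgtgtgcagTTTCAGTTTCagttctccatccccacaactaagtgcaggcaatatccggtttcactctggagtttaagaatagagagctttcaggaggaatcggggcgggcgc
Irf8: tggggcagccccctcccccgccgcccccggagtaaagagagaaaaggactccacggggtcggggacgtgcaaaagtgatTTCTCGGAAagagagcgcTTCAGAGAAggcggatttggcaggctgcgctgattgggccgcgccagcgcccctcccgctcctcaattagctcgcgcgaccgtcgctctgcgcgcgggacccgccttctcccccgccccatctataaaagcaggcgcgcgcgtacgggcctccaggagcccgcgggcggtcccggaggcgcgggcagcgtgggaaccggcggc
Isg15: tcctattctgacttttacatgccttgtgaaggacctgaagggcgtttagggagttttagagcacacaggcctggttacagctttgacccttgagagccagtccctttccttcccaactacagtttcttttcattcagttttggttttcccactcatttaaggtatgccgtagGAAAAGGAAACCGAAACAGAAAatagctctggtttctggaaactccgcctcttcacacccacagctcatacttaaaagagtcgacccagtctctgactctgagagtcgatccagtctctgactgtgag

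The *Oas1a* window (chr5:120907476-120907775, minus strand) held 2 overlapping ISRE cores that began 20 and 14 bases before the start, and a GAS core 98 bases before it. The *Ifih1* window (chr2:62646206-62646505, minus strand) held 1 ISRE core, 32 bases after the start. In *Gbp7* (chr3:142530086-142530385, plus strand) an ISRE core lay 53 bases before the start and GAS cores lay 106 and 87 bases before it. The *Irf8* window (chr8:120736108-120736407, plus strand) held 2 GAS cores, 171 and 153 bases before the start, and no ISRE core in these letters, and a second annotated start of *Irf8* held neither. The *Isg15* window (chr4:156200769-156201068, minus strand) held 3 overlapping ISRE cores, 78, 72 and 66 bases before the start. Of the other members that were higher, *Rsad2* held an ISRE core and *Ifit2* a GAS core, *Lgals3bp*, *Samd9l*, *Xaf1* and *Oasl1* held neither, and *Ly6e* and *Iigp1* had no window.

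**Figure D2:**
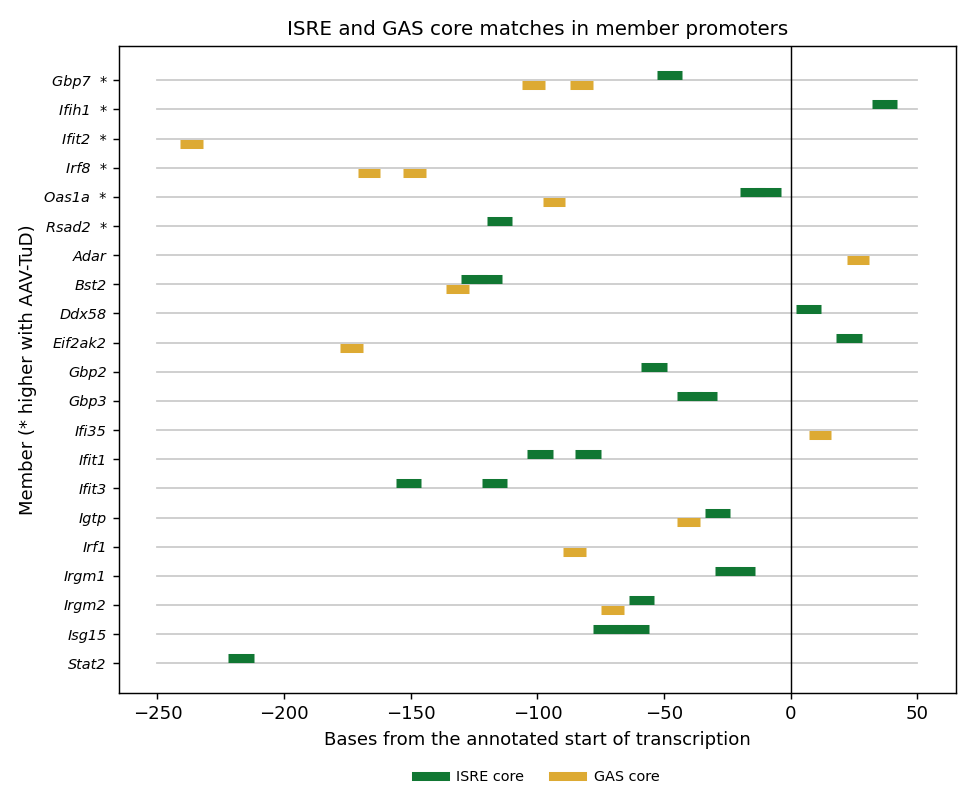
Positions of ISRE cores (green) and GAS cores (yellow) in the promoter windows of the members that held either, with distance from the annotated start in bases on the x axis and an asterisk for members higher with AAV-TuD. Most matches lie within 136 bases before the start, and both kinds of core occur in members with and without an asterisk.

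Signalling and transcription factors made up 5 of the members tested. 1 of 5 was higher, *Irf8*, and the median log2 fold change of the 5 was 0.13. Beside the counts of this and the following role groups, 7.24% of all genes tested were higher. *Irf8*, a transcription factor of macrophages and dendritic cells that is induced by type II interferon, was measured at 7.88, 7.30, 8.85, 7.26 and 11.9 CPM in AAV-NC 1, 2, 6, 7 and 8. The AAV-TuD livers spanned 10.1 to 19.2 CPM with a median of 12.5. AAV-NC 8 lay above AAV-TuD 3 and 11, and the other 4 AAV-TuD livers exceeded all controls. The means were 8.63 ± 1.92 (SD, n = 5) and 13.7 ± 3.72 CPM (SD, n = 6), a log2 fold change of 0.65 ± 0.19 (SE, adjusted p = 0.0326).

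The other 4 signalling members, 2 of them parts of the type I complex itself, did not pass the threshold. *Stat2* averaged 28.0 ± 1.81 CPM in AAV-NC and 25.9 ± 2.27 CPM in AAV-TuD (log2 fold change −0.11 ± 0.08, adjusted p = 0.426), and *Irf9*, its DNA-binding partner, 24.4 ± 1.44 and 24.8 ± 3.01 CPM (0.02 ± 0.09, adjusted p = 0.905). *Irf1*, an early target of type II interferon, gave 26.0 ± 4.08 and 28.5 ± 3.66 CPM (0.13 ± 0.11, adjusted p = 0.494), and 100 bases at its 3′ end also occur in *Gm17334*. *Irf7*, which drives further type I interferon production, spanned 10.3 to 13.8 CPM in AAV-NC and 9.20 to 22.2 CPM in AAV-TuD (0.44 ± 0.20, adjusted p = 0.177). Its AAV-TuD livers split widely, with livers 4, 9 and 10 above all controls and liver 3 below them. *Irf7* passed under library size alone and without the 3 livers with a high *Mup* share.

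Among the 4 cytosolic sensors of foreign nucleic acid, *Ifih1* was higher and the other 3 did not pass the threshold. *Ifih1*, which encodes MDA5, a sensor of long double-stranded RNA, lay at 28.4, 27.6, 20.7, 25.03 and 24.0 CPM in AAV-NC 1, 2, 6, 7 and 8. In AAV-TuD it spanned 31.0 to 37.0 CPM with a median of 34.7. The groups did not overlap, and *Ifih1* varied little within AAV-TuD (SD of log2 CPM 0.11). Its mean was 25.1 ± 3.06 CPM in AAV-NC and 34.5 ± 2.58 CPM in AAV-TuD, a log2 fold change of 0.46 ± 0.09 (SE, adjusted p = 0.00519). *Ddx58*, which encodes the related sensor RIG-I, gave 17.5 ± 2.82 and 21.3 ± 2.52 CPM (0.29 ± 0.12, adjusted p = 0.129). *Dhx58*, encoding LGP2, which modulates both, gave 0.26 ± 0.30 (adjusted p = 0.639), and *Zbp1*, a sensor of Z-form nucleic acid, gave 0.01 ± 0.21 (adjusted p = 0.979). The *Dhx58* estimate rested on a mean of 21.6 reads a liver.

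RNA-binding effectors held 3 of the 12 higher members among 8 tested, *Oas1a*, *Ifit2* and *Oasl1*, and their median log2 fold change was 0.64. *Oas1a* makes the 2-5A oligonucleotide that switches on RNase L. It was measured at 1.55, 0.88, 0.996, 1.13 and 1.27 CPM in AAV-NC 1, 2, 6, 7 and 8, and at 2.27 to 4.31 CPM with a median of 2.97 in AAV-TuD. The groups did not overlap, and the means were 1.16 ± 0.26 and 3.15 ± 0.88 CPM, the largest estimate among the members (1.42 ± 0.25 SE, adjusted p = 0.00296). It rested on few reads, from 7 in AAV-NC 2 to 50 in AAV-TuD 10. The last 300 bases of its transcripts, where the 3′ reads fall, were 96.7% identical to those of its paralogue *Oas1g*, which was also higher, so reads of the pair cannot be assigned with certainty.

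*Ifit2*, whose product binds viral RNA and blocks its translation, lay at 2.63, 1.51, 1.44, 1.13 and 2.33 CPM in AAV-NC 1, 2, 6, 7 and 8. AAV-TuD spanned 1.596 to 5.17 CPM with a median of 3.79. AAV-TuD 3 lay among the controls and the other 5 lay above all of them (means 1.81 ± 0.64 and 3.65 ± 1.20 CPM, log2 fold change 0.997 ± 0.29, adjusted p = 0.0350). The *Ifit2* estimate also rested on few reads, 9 in the lowest liver and a mean of 29.45 a liver. *Oasl1*, an OAS-like protein without synthetase activity that restrains *Irf7* translation, lay at 7.16, 7.17, 3.98, 5.01 and 5.25 CPM in AAV-NC. In AAV-TuD it spanned 6.24 to 15.0 CPM with a median of 9.93, and livers 3 and 11 overlapped the controls (means 5.72 ± 1.41 and 9.86 ± 3.32 CPM, log2 fold change 0.79 ± 0.23, adjusted p = 0.0361).

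The other RNA-binding effectors did not pass the threshold with edgeR. *Oasl2* did not overlap between groups, at 2.25 to 2.86 CPM in AAV-NC and 3.10 to 6.98 CPM in AAV-TuD, and gave 0.68 ± 0.22 (adjusted p = 0.0604). *Oasl2* passed with DESeq2 (adjusted p = 0.0495), under library size alone and without AAV-TuD 3, and over all 19 alternatives its adjusted p was 0.028 to 0.116. *Ifit1*, a binder of uncapped and incompletely capped RNA, gave 0.59 ± 0.23 (adjusted p = 0.114) and its partner *Ifit3* 0.45 ± 0.20 (adjusted p = 0.170). *Ifit1* passed under library size alone, without AAV-TuD 3 and without the 3 livers with a high *Mup* share. *Eif2ak2*, which encodes the RNA-activated kinase PKR, gave −0.11 ± 0.10 (adjusted p = 0.547), and *Adar*, an RNA-editing enzyme, 0.05 ± 0.25 (adjusted p = 0.935). Reads of *Adar* could also come from *Chrnb2*, whose annotation shares its last 300 bases.

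The ISG15 system, ubiquitin ligases and ADP-ribosyltransferases held 0 higher and 0 lower members among 6, with edgeR, DESeq2 and limma-voom alike, and 1 (*Usp18*) at an unadjusted p under 0.05. *Isg15*, the ubiquitin-like modifier that gives the system its name, lay at 14.2, 10.95, 12.8, 10.51 and 12.5 CPM in AAV-NC and at 10.4 to 20.4 CPM with a median of 14.3 in AAV-TuD (0.32 ± 0.16, adjusted p = 0.223). A stretch of 136 bases at its 3′ end was 95.6% identical to *AC151275.1*, which was not among the genes tested. *Usp18* removes ISG15 and dampens the type I receptor, and it gave 3.84 ± 0.88 and 5.99 ± 1.97 CPM (0.64 ± 0.22, adjusted p = 0.0731). It passed under library size alone and without AAV-TuD 9, and over all 19 alternatives its adjusted p was 0.0292 to 0.176. The estimates of the more abundant members of this group were smaller than those of *Isg15* and *Usp18*.

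*Dtx3l*, a ubiquitin ligase, lay at 46.9, 53.5, 44.9, 54.2 and 52.4 CPM in AAV-NC and at 44.4 to 57.2 CPM with a median of 49.8 in AAV-TuD (log2 fold change 0.01 ± 0.08). *Trim25*, the ligase that acts on RIG-I, lay at 28.3, 33.1, 36.0, 37.4 and 37.0 CPM and at 31.2 to 37.4 CPM with a median of 34.6 (0.01 ± 0.08). *Parp9*, the partner of DTX3L, lay at 31.7, 34.2, 26.8, 37.1 and 25.5 CPM and at 28.4 to 52.2 CPM with a median of 34.3 (0.21 ± 0.14). For *Parp9*, AAV-TuD 10 lay above all controls and the other 5 AAV-TuD livers inside their range. *Parp14*, an ADP-ribosyltransferase, gave 0.23 ± 0.12 (adjusted p = 0.249).

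Interferon-induced GTPases, some of which coat and disrupt pathogen vacuoles, held 2 higher members of 8, *Gbp7* and *Iigp1*. *Gbp7*, a guanylate-binding protein, lay at 18.7, 16.7, 17.3, 15.8 and 20.1 CPM in AAV-NC 1, 2, 6, 7 and 8, and at 19.9 to 35.0 CPM with a median of 25.2 in AAV-TuD. AAV-TuD 3 fell just below AAV-NC 8 and the other 5 lay above all controls. The means were 17.7 ± 1.72 and 26.1 ± 5.45 CPM, a log2 fold change of 0.55 ± 0.13 (adjusted p = 0.0134). *Iigp1*, an immunity-related GTPase and the most abundant of the group, lay at 205.3, 197.1, 195.9, 144.7 and 143.8 CPM in AAV-NC. AAV-TuD spanned 183.2 to 301.3 CPM with a median of 245.6, again with liver 3 inside the controls and the other 5 above them (means 177.3 ± 30.4 and 244.0 ± 37.8 CPM, 0.46 ± 0.12, adjusted p = 0.0252).

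The estimates of the remaining GTPases ran from −0.33 for *Irgm2* to 0.59 for *Gbp2*, and none passed the threshold. *Irgm2* stayed below 0 in each of 19 alternative fits, at −0.449 to −0.101. *Gbp2* had the largest spread of any member within AAV-TuD (SD of log2 CPM 0.76), at 3.10, 2.27, 1.33, 1.502 and 4.28 CPM in AAV-NC and at 1.69 to 6.83 CPM with a median of 3.12 in AAV-TuD (0.59 ± 0.38, adjusted p = 0.359). *Igtp* lay at 9.67, 8.93, 10.51, 6.76 and 15.2 CPM in AAV-NC and at 6.57 to 17.2 CPM with a median of 9.45 in AAV-TuD (0.13 ± 0.26, adjusted p = 0.796). AAV-TuD 4 and 10 stood highest for both genes. *Gbp3* gave 0.39 ± 0.25, *Irgm1* 0.29 ± 0.19, *Mx2* −0.01 ± 0.27 and *Irgm2* −0.33 ± 0.19, with adjusted p of 0.337, 0.353, 0.992 and 0.304. *Igtp* and *Irgm2* overlap in the annotation on the same strand, so their reads may not be fully separate.

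The 9 other antiviral and interferon-induced proteins had the most higher members, 5 of 9, and a median log2 fold change of 0.51. *Ly6e*, a membrane-anchored protein that restricts coronavirus entry and promotes entry of some other viruses, had the smallest p of all members. It lay at 111.9, 128.1, 101.7, 108.5 and 111.9 CPM in AAV-NC 1, 2, 6, 7 and 8, and at 202.0 to 337.2 CPM with a median of 242.3 in AAV-TuD. The lowest AAV-TuD liver was well above the highest control, and the means were 112.4 ± 9.71 and 254.5 ± 53.9 CPM, a 2.26-fold difference (log2 fold change 1.18 ± 0.13, adjusted p = 6.64e-05). It was counted from at least 867 reads in each liver, so counting error was small beside the spread between animals.

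*Lgals3bp*, a secreted galectin-3 ligand, lay at 25.3, 30.2, 19.6, 25.03 and 21.6 CPM in AAV-NC 1, 2, 6, 7 and 8, and at 29.2 to 45 CPM with a median of 32.5 in AAV-TuD (0.51 ± 0.12, adjusted p = 0.0152). AAV-TuD 3 alone lay below AAV-NC 2, the highest control. *Samd9l*, a restriction factor that curbs translation, lay at 7.04, 8.81, 5.75, 5.63 and 4.86 CPM and at 7.04 to 13.9 CPM with a median of 10.4 (0.72 ± 0.18, adjusted p = 0.0157). *Xaf1*, a pro-apoptotic antagonist of XIAP, lay at 7.04, 7.68, 4.54, 5.26 and 5.35 CPM and at 5.73 to 11.8 CPM with a median of 9.54 (0.64 ± 0.18, adjusted p = 0.0334). Liver 3 was again the only AAV-TuD liver inside the controls for both. A stretch at the 3′ end of *Xaf1* matched 284 other genes at 95% identity or more, so its reads are less certain than most.

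*Rsad2*, which encodes viperin, an enzyme that makes a chain-terminating nucleotide, lay at 6.92, 8.31, 9.63, 8.51 and 11.9 CPM in AAV-NC 1, 2, 6, 7 and 8. AAV-TuD spanned 8.54 to 23.1 CPM with a median of 13.9, and livers 3 and 4 lay below AAV-NC 8 (0.71 ± 0.22, adjusted p = 0.0497, just under the threshold). *Bst2*, or tetherin, which holds budding virions to the cell, lay at 64.3, 62.4, 51.3, 77.7 and 69.0 CPM in AAV-NC and at 63.8 to 90.5 CPM with a median of 75.3 in AAV-TuD (0.22 ± 0.11, adjusted p = 0.201). *Ifi44*, *Rtp4* and *Ifi35* gave 0.49 ± 0.22, 0.33 ± 0.15 and 0.05 ± 0.16, with adjusted p of 0.156, 0.190 and 0.897.

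**Figure D3:**
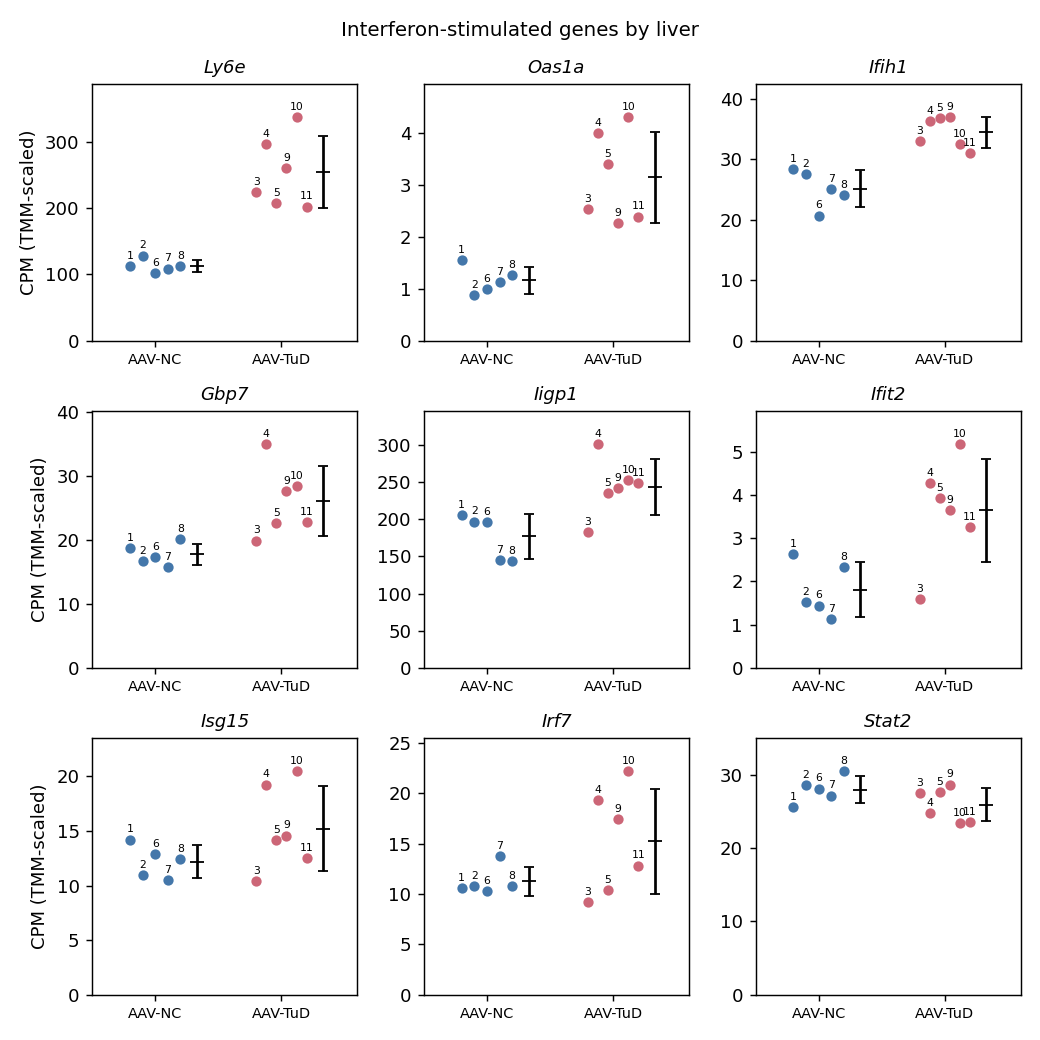
CPM (y axis, from 0) of 9 members in each liver, with replicate numbers beside the points and group mean ± SD as black bars. *Ly6e*, *Oas1a* and *Ifih1* do not overlap between AAV-NC (blue) and AAV-TuD (red), and AAV-TuD 3 lies inside the controls for *Ifit2* and *Iigp1*. For *Stat2* the groups overlap, with AAV-TuD 4, 10 and 11 below all controls.

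The AAV-TuD livers were not alike. AAV-TuD 10 was the highest of its group for 25 of 40 members and AAV-TuD 4 for 10, while AAV-TuD 3 was the lowest for 20 and AAV-TuD 11 for 9. The median over members of log2 CPM minus the AAV-NC mean was 0.75 in AAV-TuD 10, 0.47 in AAV-TuD 4, 0.40 in AAV-TuD 9, 0.31 in AAV-TuD 5, 0.17 in AAV-TuD 11 and −0.04 in AAV-TuD 3, against −0.11 to 0.11 in the 5 AAV-NC livers. The summed level of the members was 775.5 to 882.0 CPM in AAV-NC and 938.6 to 1347 CPM in AAV-TuD, with no overlap, a sum in which the abundant *Ly6e* and *Iigp1* weigh most.

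AAV-TuD 10 also had the highest summed Kupffer cell markers, 398.8 CPM, and AAV-TuD 3 the lowest of its group, 140.5 CPM, inside the range of the controls. The highest and lowest livers were not particular to the Kupffer cell list. AAV-TuD 10 was highest and AAV-TuD 3 lowest of the group for monocyte and neutrophil markers (106.5 and 42.9 CPM), a sum mostly of *Lyz2* and *Cybb*. The same held for stellate cell markers (471.3 and 361.0 CPM), but AAV-TuD 9 reached 467.6 CPM there. *Dcn* alone gave 284.8 CPM of the AAV-TuD 10 sum and 272.7 CPM of the AAV-TuD 9 sum, so the order of those livers rests on that gene. Unlike for Kupffer cell markers, AAV-TuD 3 lay above all controls for both of these lists. AAV-TuD 5 had 303.2 CPM of Kupffer cell markers, with a members' median of 0.31. Whether the members followed any marker list was not tested. The summed sinusoidal endothelial markers stayed at 248.6 to 277.1 CPM over all 11 livers. AAV-TuD 3 was also among the livers with a high *Mup* share, as were AAV-TuD 5 and AAV-NC 7. With those 3 livers left out, a choice made after seeing the data, 13 members were higher, 11 of them among the 12.

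**Figure D4:**
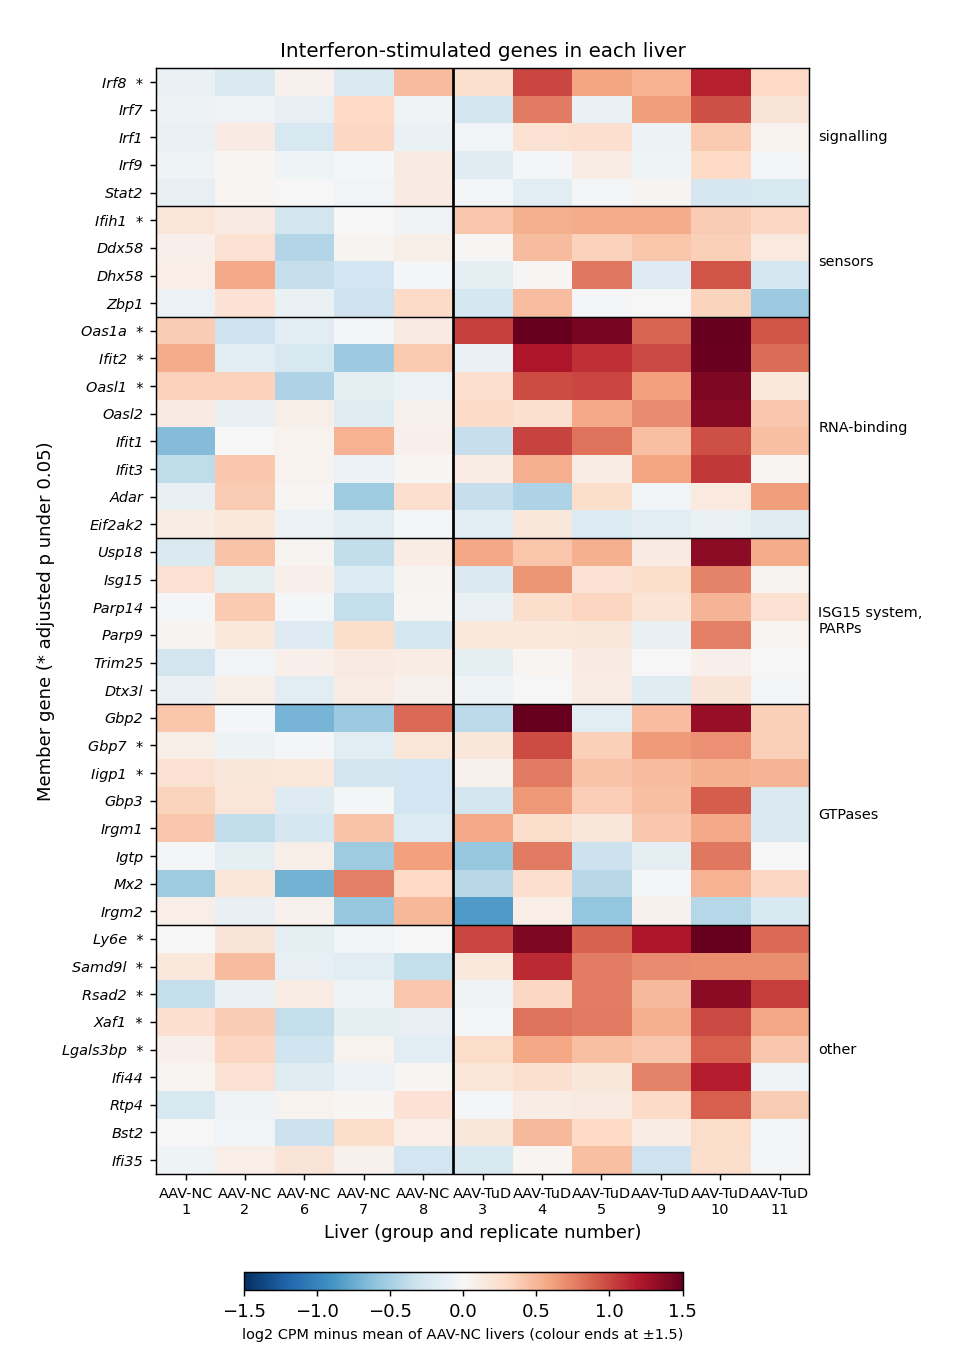
Log2 CPM minus the mean of the AAV-NC livers for the 40 members (rows, grouped by role, asterisks for adjusted p under 0.05) in each of the 11 livers (columns); red is higher and blue lower, and the colour scale ends at 1.5 either way. The AAV-TuD 10 column is the reddest and AAV-TuD 3 is pale for most members outside *Ly6e* and *Oas1a*.

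**Figure D5:**
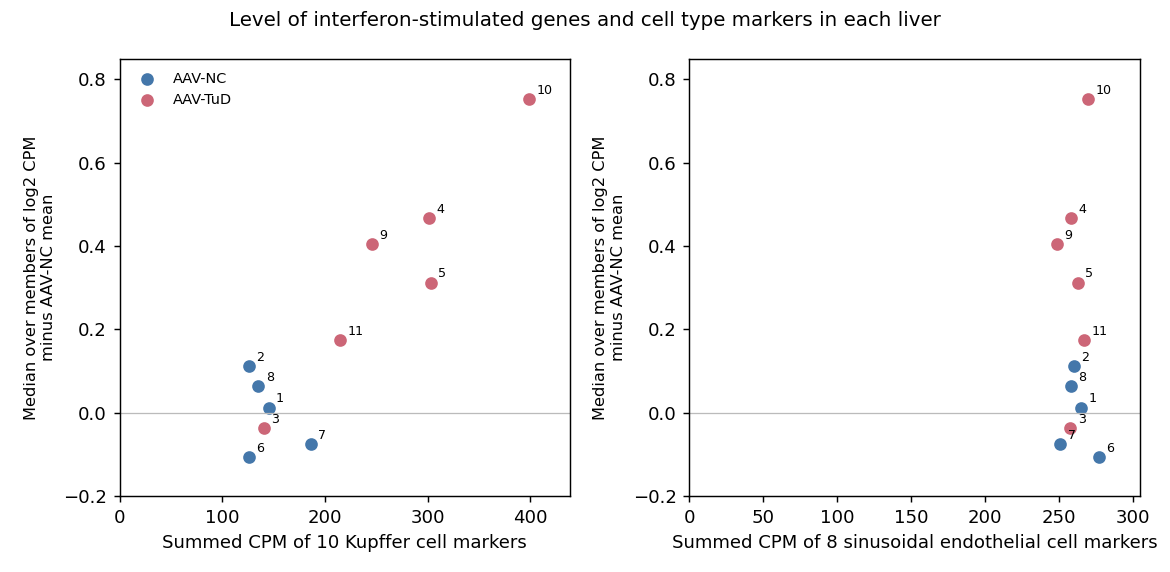
Median over the members of log2 CPM minus the AAV-NC mean (y axis) against the summed CPM of 10 Kupffer cell markers (left) and of 8 sinusoidal endothelial cell markers (right) in each liver, labelled by replicate number. AAV-TuD 10 is highest on both axes of the left panel and AAV-TuD 3 lies among the AAV-NC livers there, while the endothelial sums of the 11 livers span only 248.6 to 277.1 CPM.

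The 9 members usually ranked as type II inducible (*Irf1*, *Irf8*, the guanylate-binding proteins and the immunity-related GTPases) held 3 higher members, with a median log2 fold change of 0.39. The other 31 tested held 9, with a median of 0.33. Over all genes tested 7.24% were higher, and neither share was tested against the other.

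The wider interferon pathway was followed in 148 further genes, of which 118 had a row and 116 were tested. 15 of the 116 (12.9%) were higher and 1 was lower, while 7.24% of all genes tested were higher and 4.33% were lower. None of the 9 interferon ligands listed had a row, so ligands were not analysed here. The receptors and kinases described next did not pass the threshold, though *Ifngr1* did in 2 of 19 alternative fits. The type I receptor chains *Ifnar1* and *Ifnar2* gave 0.26 ± 0.19 and 0.12 ± 0.12, the type II chains *Ifngr1* and *Ifngr2* 0.33 ± 0.13 and 0.38 ± 0.15, and *Il10rb*, a chain of the type III receptor, 0.65 ± 0.27. The kinases *Jak1*, *Jak2* and *Tyk2* gave −0.12 ± 0.08, 0.17 ± 0.18 and 0.18 ± 0.13, and *Stat3* −0.12 ± 0.10, with adjusted p from 0.108 to 0.612 over these 9.

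Of 8 inhibitors of interferon signalling tested, 0 were higher or lower with edgeR, DESeq2 or limma-voom, and 1 had an unadjusted p under 0.05. Of 16 tested genes of nucleic acid sensing, *Mavs*, the mitochondrial adaptor that passes on the RIG-I and MDA5 signal, was lower. It averaged 40.4 ± 4.83 CPM in the controls and 32.2 ± 3.79 CPM in AAV-TuD (−0.33 ± 0.10, adjusted p = 0.0461). The count of lower genes of the wider pathway was 0 with limma-voom, under library size alone and in 9 of the 11 fits without 1 liver.

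Of 82 further interferon-induced genes 14 were higher (17.1%, against 7.24% of all genes tested). The median log2 fold change of the 82 was 0.37. *Slfn9*, of the Schlafen family, averaged 2.53 ± 0.55 and 8.40 ± 2.65 CPM (1.73 ± 0.25, adjusted p = 0.000771), with no overlap. *Oas1g* averaged 1.004 ± 0.35 and 3.03 ± 0.88 CPM (1.57 ± 0.28, adjusted p = 0.00305). *Ifi211* and *Ifi203*, DNA-binding proteins of the AIM2-like family, gave 0.89 ± 0.16 and 0.42 ± 0.10, and *Apobec3*, a cytidine deaminase that restricts retroviruses, 0.89 ± 0.19. *Slfn8*, *Slfn5* and *Ifitm1*, a membrane protein that blocks viral fusion, gave 1.44 ± 0.34, 0.41 ± 0.11 and 0.63 ± 0.16. The remaining 6 were *Ifi204*, *Ifi205*, *Mndal*, *Sp100*, *Gvin1* and *Slfn2*, between 0.33 and 0.88. For 8 of the 82 the lowest AAV-TuD value exceeded the highest AAV-NC value, 7 of them among the 14. Over all genes tested that share was 4.11%.

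How far single livers decided a call differed between members. *Ly6e*, *Oas1a*, *Ifih1*, *Gbp7*, *Lgals3bp* and *Samd9l* passed the threshold in each of 19 alternative fits, 11 of which left out 1 liver. The count of higher members fell from 12 to 6 without AAV-NC 7 and to 7 without AAV-NC 6, AAV-TuD 4 or AAV-TuD 10. *Iigp1* lost its call without AAV-TuD 4, AAV-NC 7 or AAV-NC 8, and *Irf8*, *Xaf1*, *Ifit2*, *Oasl1* and *Rsad2* in 6 to 8 of the 11, with adjusted p of at most 0.116. *Rsad2* also lost its call with limma-voom, DESeq2 size factors, *Mup* genes out of the scaling, filterByExpr and no filter, and *Oasl1* with limma-voom and without the 3 livers with a high *Mup* share. The log2 fold changes of *Iigp1*, *Irf8*, *Xaf1*, *Ifit2*, *Oasl1* and *Rsad2* stayed between 0.40 and 1.16 when any 1 liver was left out.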

How the data were processed

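Total RNA of whole liver (500 ng per library) was sequenced with QuantSeq 3′ libraries, which read the 3′ end of each mRNA. The authors used BBDuk for trimming, STAR 2.5.3a for alignment against GRCm38 and Rsubread for counting. The deposited values are raw counts per gene, limited to genes that reached 10 reads in 5 or more livers. The annotation, strand and treatment of multimapping reads are not given in the sources used here. DESeq2 1.38.3 is named in the submitters' processing notes.

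Genes exceeding 10 reads in 5 livers or more entered edgeR 4.0.16 (TMM factors, quasi-likelihood test, Benjamini-Hochberg adjustment over all genes, R 4.3.3), with DESeq2 1.42.0 and limma 3.58.1 as alternatives. The fit was tested on simulated counts. A log2 CPM carried a prior count of 2. Gene positions are those of GENCODE (release M21). Pairs of livers of one group correlated at 0.967 to 0.984 over genes, and no pair was identical. Replicates were separate mice. Other alternatives were another scaling, other filters and leaving out each liver.

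The members and lists were chosen with earlier results of these data known. Values by liver are given for members past the threshold, the 4 others with the highest mean CPM and the 2 others with the largest spread within AAV-TuD, and for *Isg15*, chosen after its values were seen. Of the wider pathway, the 8 with the smallest p and receptors, kinases and STATs are given, 1 gene is not reported here, and further genes were named after their values were seen.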

Additional observations from a re-analysis of the deposited data

Results flagged for a closer look

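Of 138 groups of values examined, 8 had a liver set apart from the rest of its group by Dixon's 95% criterion, where chance gives about 1 in 20 groups, or 6.9. The number after each gene is the gap to the nearest other liver as a share of the group's range. AAV-TuD 10 was far above its group for *Parp9* (0.735, at 52.2 CPM against at most 34.7 CPM), *Usp18* (0.719, at 9.83 CPM against at most 5.73 CPM), *Oasl2* (0.672, at 6.98 CPM against at most 4.37 CPM) and *Rtp4* (0.630, at 18.8 CPM against at most 13.2 CPM). AAV-TuD 4 was far above its group for *Eif2ak2* (0.765, at 14.8 CPM), and AAV-NC 7 for *Irf7* (0.848, at 13.8 CPM). Of the marker sums, AAV-NC 8 stood apart for the only T and NK cell marker with a row, *Ccl5* (0.856, at 2.33 CPM), and AAV-TuD 9 for hepatocyte markers (0.754, at 52240 CPM).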

How the results depend on the processing

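No paired analysis was possible because no replicate number occurs in both groups. The count of higher members, 12, was 10 to 16 under the 7 other tools, scalings and filters and 6 to 14 when 1 liver was left out, and 0 members were lower in any of them. Of the wider pathway 15 genes were higher, 32 under library size alone and 8 to 28 when 1 liver was left out (8 without AAV-TuD 4 or AAV-TuD 10, 9 without AAV-NC 1 or AAV-NC 2, 28 without AAV-TuD 3). The count of lower genes of the wider pathway, 1 (*Mavs*), was 0 under limma-voom, under library size alone, and without the 3 livers with a high *Mup* share (a choice made after seeing the data), and 0 to 1 when 1 liver was left out (0 in 9 of the 11 fits). Over all genes, 577 were lower, 71 under library size alone and 338 to 720 when 1 liver was left out (338 without AAV-TuD 4, 376 without AAV-TuD 10). Library size alone moved the median of all genes to 0.23 and the members' median to 0.62, which is 0.389 above it, and 95.1% of its calls were higher against 62.6% with TMM factors.

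Estimates near 0 changed sign in some fits, and none of these passed the threshold. Under library size alone *Mx2* gave 0.294, *Eif2ak2* 0.125, *Stat2* 0.112, *Jak1* 0.107 and *Stat3* 0.114. Under limma-voom *Mx2* gave 0.110, *Dtx3l* −0.0061, *Ifi35* −0.010 and *Zbp1* −0.031, and *Dtx3l* gave −0.000469 with DESeq2 and −0.000333 with its size factors in edgeR. Without the 3 livers with a high *Mup* share *Mx2* gave 0.417 and *Adar* −0.0202. When 1 liver was left out, values ran from −0.0242 to 0.33 for *Igtp*, −0.164 to 0.217 for *Mx2*, −0.051 to 0.0432 for *Trim25*, −0.0344 to 0.0444 for *Dtx3l*, −0.0453 to 0.118 for *Ifi35*, −0.107 to 0.149 for *Adar*, −0.0918 to 0.115 for *Zbp1* and −0.0344 to 0.0637 for *Irf9*. The cause of these changes was not tested. Members with few reads, such as *Oas1a*, *Ifit2*, *Adar* and *Dhx58*, are limited by depth.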
